A study of Mus musculus with 6 samples.

Results

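The 8 long non-coding RNAs described here are Neat1, Malat1, Miat, Meg3, Rian, Mirg, Snhg11 and Gas5. They were chosen by gene symbol, and all 8 were found among the 24411 genes of the count table and passed the filter on low counts. The RNA came from mouse cortical neuron cultures prepared from embryos at day 18. In 3 libraries (PFF) the cultures had received 3.45 µM preformed fibrils of mouse α-synuclein on day 10 in vitro, and in 3 libraries (PBS) phosphate-buffered saline as vehicle. Both groups were harvested at day 18 in vitro, which gave the PFF cultures 8 days with fibrils. Preformed fibrils are aggregates of recombinant α-synuclein that seed aggregation of the protein of the cell. The labels give no genotype or strain, and separate cultures are not named for the libraries. The p-values may therefore measure technical spread alone. The 8 RNAs were proposed with their levels and their PFF to PBS differences in these libraries known. Those values, and the adjusted p-values read for these RNAs out of the fit over all genes, are therefore a description and support no further statement.

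Long non-coding RNAs act as RNA, without a protein product, and several stay in the nucleus. Neat1 is the scaffold on which paraspeckles, nuclear bodies that retain RNA-binding proteins, are built, and Malat1 gathers in nuclear speckles next to splicing factors. Miat, also called Gomafu, lies in separate spots of the neuronal nucleus. Meg3, Rian and Mirg are expressed from the maternal copy of the imprinted Dlk1-Dio3 domain. Rian carries box C/D snoRNAs and Mirg a large cluster of miRNAs, several of which act in neurons. Gas5 and Snhg11 are hosts of snoRNAs, the guides of RNA modification. Gas5 carries a terminal oligopyrimidine tract at its 5′ end, which ties its turnover to translation.

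In GENCODE vM21 on GRCm38 (mm10), Malat1 lies on the minus strand of chromosome 19 from 5795690 to 5802672, and Neat1 on the same strand from 5824708 to 5845478, with 22.0 kb between them. Meg3 (109541001 to 109571726), Rian (109603940 to 109661716) and Mirg (109729764 to 109749460) follow each other on the plus strand of chromosome 12, with gaps of 32.2 kb and 68.0 kb. Miat is on chromosome 5 from 112213228 to 112229395 (minus strand), Snhg11 on chromosome 2 from 158375638 to 158386145 (plus strand) and Gas5 on chromosome 1 from 161034422 to 161038539 (plus strand). GENCODE gives Snhg11 the biotype protein_coding, Rian and Gas5 processed_transcript, and the other 5 lincRNA. Exons of unnamed models on the opposite strand cover 24.3% of the exonic bases of Miat (Gm26953), 6.79% of Meg3 (Gm26906) and 6.49% of Malat1 (Gm37376). The strand setting of the counting is not given in the sources used here, so reads of these partners may be included.

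The start regions of Malat1, the RNA that was lower in PFF, and of Meg3 and Gas5, which did not pass the test, are shown so that they can be set side by side. Each runs from 250 bases before to 50 bases after a RefSeq start (GRCm38.p6), in lower case 5′ to 3′ along the gene. Capitals mark, on either strand, the cyclic AMP response element TGACGTCA, its half-site TGACG, the letters TATAAA, the letters CCAAT and a run of pyrimidines at the start itself. For Meg3 the upstream one of 2 starts is shown, and for Gas5 the downstream one of 2. The windows are chr19:5802623-5802922 (minus strand), chr12:109540746-109541045 (plus strand) and chr1:161034916-161035215 (plus strand).
Malat1: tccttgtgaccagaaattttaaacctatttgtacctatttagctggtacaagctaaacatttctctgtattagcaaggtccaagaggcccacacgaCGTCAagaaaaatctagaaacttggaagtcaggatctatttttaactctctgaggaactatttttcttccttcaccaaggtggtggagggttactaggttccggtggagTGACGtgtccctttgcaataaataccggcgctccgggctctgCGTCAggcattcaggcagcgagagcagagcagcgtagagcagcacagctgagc
Meg3: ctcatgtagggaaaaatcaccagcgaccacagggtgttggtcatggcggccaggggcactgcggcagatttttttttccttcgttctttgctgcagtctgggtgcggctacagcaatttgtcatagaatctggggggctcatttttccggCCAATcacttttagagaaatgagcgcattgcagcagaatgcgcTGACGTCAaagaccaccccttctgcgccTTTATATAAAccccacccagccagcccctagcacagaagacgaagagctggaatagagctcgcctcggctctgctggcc
Gas5: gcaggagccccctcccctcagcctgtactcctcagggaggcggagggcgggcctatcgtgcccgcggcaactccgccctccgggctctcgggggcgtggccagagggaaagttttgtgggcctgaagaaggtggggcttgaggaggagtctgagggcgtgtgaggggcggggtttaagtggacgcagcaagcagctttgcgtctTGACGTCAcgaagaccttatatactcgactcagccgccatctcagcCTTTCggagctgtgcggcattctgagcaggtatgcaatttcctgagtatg

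The full element TGACGTCA stood once in the Meg3 window, 57 bases before the start, and once in the Gas5 window, 46 bases before it. It was found in 1.79% of the 32851 windows of that length. The half-site, which the full element contains, stood at 3 places in the Malat1 window and was found in 20.8% of all windows. TATAAA occurred in the Meg3 window on both strands, 29 and 25 bases before the start, with overlapping letters, and in 13.6% of all windows. CCAAT stood in the Meg3 window, in that of Mirg, which is not shown, and in 37.4% of all windows. The windows of Rian, Mirg, Miat and Snhg11, also not shown, held no TGACG. Gas5 began with the pyrimidine run CTTTC at the start itself. A C followed by at least 4 further pyrimidines at that place was found in 2.51% of all windows, among them that of Miat (CCCTTT). RefSeq windows were matched for 7 of the 8 RNAs, all but Neat1. Meg3 and Gas5 have 2 starts each, and their windows not shown held 0 matches to each of these letter motifs.

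The RNA counted as Mirg is a precursor. On its strand GENCODE places 14 miRNA hairpins between its ends, 4 of them wholly inside annotated exons, where reads of the host can include them. The RefSeq mature sequences (GRCm38.p6, chromosome 12) matched to these 4 hairpins are shown because the hairpins lie wholly inside Mirg exons. The seed (bases 2 to 8) is in capitals. For the miR-485 hairpin only the 3p arm was matched.
mmu-miR-134-5p: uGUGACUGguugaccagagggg
mmu-miR-134-3p: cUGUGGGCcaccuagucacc
mmu-miR-485-3p: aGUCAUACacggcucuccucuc
mmu-miR-377-5p: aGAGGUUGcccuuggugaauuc
mmu-miR-377-3p: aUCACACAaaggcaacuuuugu
mmu-miR-410-5p: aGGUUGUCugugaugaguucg
mmu-miR-410-3p: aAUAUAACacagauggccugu

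Among these arms are the 2 of miR-134, which restricts dendritic spine growth in rodent hippocampal neurons. The 7 seeds differ from each other. Over the whole Mirg interval RefSeq lists 26 mature miRNAs with 25 different seeds, against 6 in Rian and 3 in Meg3. Only miR-453 and miR-496a-5p shared one (GGUUGCC). The small RNAs themselves were not measured here. The rows of the 14 Mirg hairpins held at most 2 counts in any library, and the 4 snoRNA rows of Rian and the 1 of Gas5 held 0 counts in all 6 libraries.

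Library totals ranged from 9224974 to 10742383 estimated counts, and 13919 genes were tested. In edgeR's quasi-likelihood fit over all of them, 916 genes (6.58%) had an adjusted p under 0.05, of which 554 (3.98%) were higher and 362 (2.60%) lower in PFF. An unadjusted p under 0.05 was found for 2944 of the 13919 in that fit. The counts at that level given below for gene lists are to be read against this. Libraries with replicate number 3 stood apart from the others of both groups on the second principal component (−18.0 for PFF 3 and −14.5 for PBS 3, against 2.53 to 13.1 in the other 4), so values without them are given as well. With replicates 1 and 2 only, 2394 genes were called over the whole fit, and 1858 without PFF 3 alone. List counts in these settings are to be read against those totals. All 12 neuronal markers were detected and tested, with a summed level of 5500 to 6045 counts per 1000000 (CPM) in PFF and 5274 to 5590 CPM in PBS. Markers of astrocytes, of the oligodendrocyte lineage and of microglia were present too.

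The word abundant held for some of the 8 RNAs only. Malat1 had the second highest count of all genes in every library, Meg3 stood between rank 3 and rank 10, Rian between 29 and 70 and Snhg11 between 44 and 133. Miat ranked 421 to 919 and Gas5 2382 to 3001. Neat1 (ranks 4563 to 7943) and Mirg (6461 to 8307) were of middling count. Together the 8 RNAs took 1.12% to 1.56% of the counts in PFF libraries and 1.26% to 1.73% in PBS libraries. The share of Malat1 alone was 0.543% to 0.766% in PFF and 0.771% to 0.960% in PBS.

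To compare the RNAs with each other, CPM were divided by the length of all annotated exons, which is approximate because the annotation used for counting is not given. Per kb, Malat1 had the highest level, 905 ± 141 CPM per kb in PFF and 1286 ± 126 CPM per kb in PBS (mean ± SD, n = 3 each). Meg3 followed (230 ± 36.8 in PFF and 230 ± 56.0 in PBS), then Snhg11 (116 ± 18.3 and 118 ± 33.5) and Rian (67.2 ± 4.60 and 67.2 ± 10.7). Miat had 33.4 ± 3.05 CPM per kb in PFF and 29.1 ± 5.15 in PBS, and Gas5 23.9 ± 2.16 in PFF and 24.3 ± 2.82 in PBS. Lowest were Mirg (3.53 ± 0.348 in PFF and 3.45 ± 0.894 in PBS) and Neat1 (2.23 ± 0.179 in PFF and 1.11 ± 0.126 in PBS). In this order the library ranges of neighbours did not overlap, except those of Miat and Gas5 in PBS. With the longest annotated transcript as the length, Gas5 stood above Miat. The place of Neat1 depends on its isoform: over the short annotated transcript (3004 bases) in place of the full 20771 bases, it reached 15.4 ± 1.24 CPM per kb in PFF and 7.71 ± 0.868 in PBS, above Mirg.

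**Figure D1:**
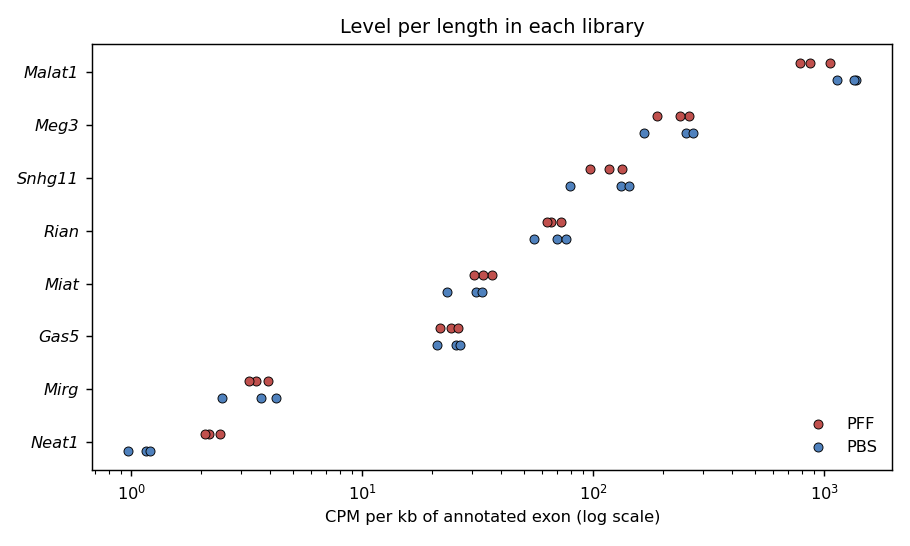
Level per length of the 8 RNAs. Each point is 1 library (PFF in red above PBS in blue, 3 each), with CPM per kb of annotated exon on a log axis. Malat1 lies at the top, around 905 CPM per kb in PFF, and Neat1 at the bottom, around 2.23 CPM per kb in PFF.

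Among the paraspeckle and nuclear RNAs, Neat1 rose and Malat1 fell in PFF, while Miat did not pass the test. Neat1 had 44.9, 43.5 and 50.5 CPM in PFF libraries 1 to 3, against 24.1, 20.2 and 25.1 CPM in PBS libraries 1 to 3. Every PFF library was above every PBS library. The mean was 46.3 ± 3.72 CPM in PFF and 23.2 ± 2.61 CPM in PBS (SD, n = 3 each), and the log2 fold change was 1.00 ± 0.10 (SE, 95% interval 0.78 to 1.22, adjusted p = 6.62e-05 in edgeR). By unadjusted p it was number 38 of the 13919 genes. The raw counts were 444 to 511 in PFF and 208 to 261 in PBS. The short and the long Neat1 transcript share their 5′ end and are 1 row in the table. The rise was within 0.91 to 1.07 on the log2 scale under all 19 alternatives to the fit.

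Malat1 had 7408, 6061 and 5494 CPM in PFF libraries 1 to 3, against 9594, 9366 and 7973 CPM in PBS libraries 1 to 3. Every PFF library was below every PBS library, the nearest being PFF 1 and PBS 3. The log2 fold change was −0.51 ± 0.12 (95% interval −0.76 to −0.25, adjusted p = 0.0226 in edgeR), from means of 6321 ± 983 CPM in PFF and 8978 ± 877 CPM in PBS. The call was lost without PFF 2 (adjusted p = 0.135), PBS 1 (adjusted p = 0.121) or PBS 2 (adjusted p = 0.0804), with log2 fold changes of −0.48, −0.46 and −0.48. It was kept without PFF 1 (adjusted p = 0.00614), PFF 3 (adjusted p = 0.0216) or PBS 3 (adjusted p = 0.0125). With replicates 1 and 2 only, Malat1 passed too (−0.49 ± 0.10, adjusted p = 0.00108), and so did Neat1 (1.01 ± 0.10, adjusted p = 1.83e-07). The ribosomal RNA precursor Rn45s was also lower in PFF. Within each group Rn45s was highest and Malat1 lowest in replicate 3. Rn45s had 33480, 30429 and 41806 CPM in PFF libraries 1 to 3, against 42678, 42203 and 60004 CPM in PBS libraries 1 to 3. Every PFF library was below every PBS library, which held for 11.6% of all genes. The nearest were PFF 3 and PBS 2, at 41806 and 42203 CPM. Scaled without Rn45s and the 8 RNAs, Malat1 was at −0.51 ± 0.12 (adjusted p = 0.0219 in edgeR). That scaling changes the library factors alone, so it cannot show what the Rn45s difference had to do with that of Malat1. This was not tested.

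Miat had 339, 310 and 282 CPM in PFF libraries 1 to 3, against 288, 306 and 216 CPM in PBS libraries 1 to 3. PFF was higher for each of the 3 replicate numbers, but the groups overlapped. The log2 fold change was 0.20 ± 0.12 (95% interval −0.05 to 0.45, adjusted p = 0.343 in edgeR). With replicate 3 as a batch term it was 0.21 ± 0.07, at an adjusted p of 0.0499.

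Of the 8 RNAs, 1 was thus called higher and 1 lower, where 3.98% and 2.60% of all genes were. The same 2 RNAs were those whose groups did not overlap, which held for 13.4% of all genes in the upward and 11.6% in the downward direction. No more is read from these counts, because the contrast was known when the RNAs were proposed. Within each library, the log2 ratio of Neat1 to Malat1, which lie side by side in the genome, was −7.35, −7.11 and −6.75 in PFF libraries 1 to 3 and −8.60, −8.82 and −8.28 in PBS libraries 1 to 3. Because Neat1 was higher and Malat1 lower in every PFF library, this ratio could not overlap between the groups. It restates those 2 differences, and its mean was 1.5 higher in PFF on the log2 scale.

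**Figure D2:**
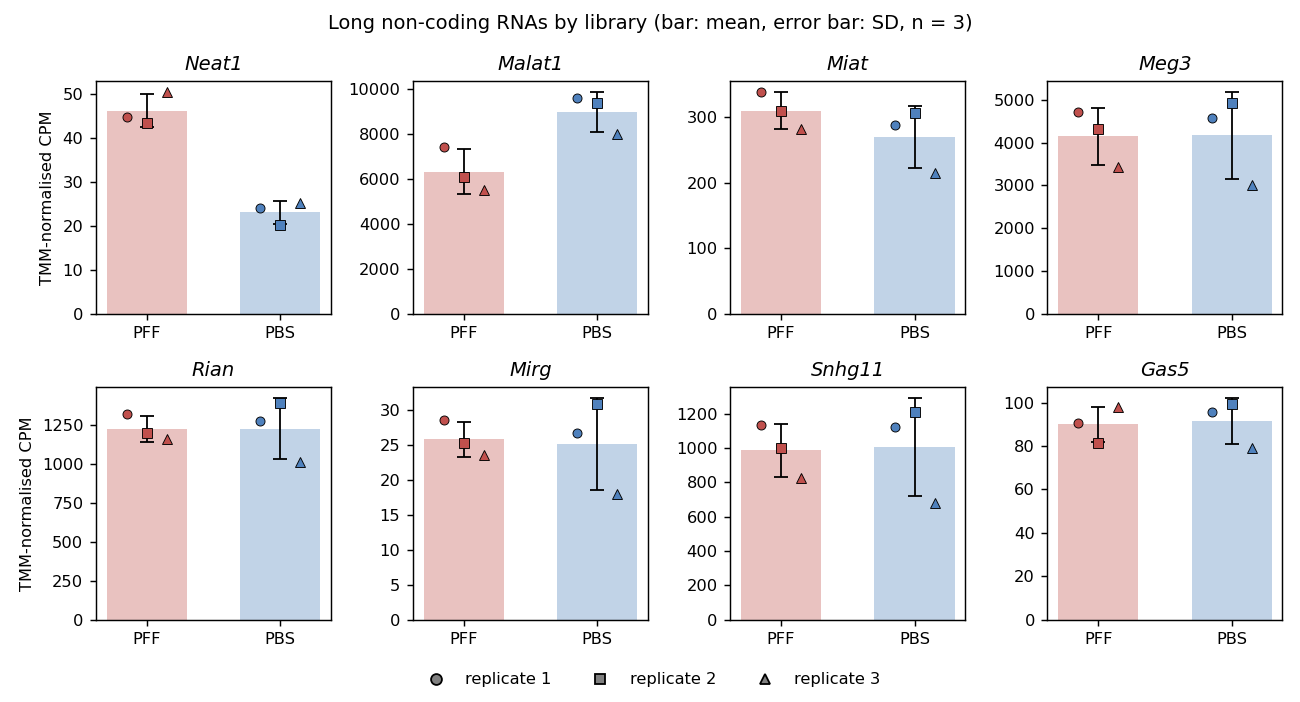
TMM-normalised CPM of each RNA in PFF (left, red) and PBS (right, blue). Bars are means, error bars SD over 3 libraries, and symbols the libraries by replicate number. Neat1 averaged 46.3 CPM in PFF and 23.2 CPM in PBS, Malat1 6321 and 8978 CPM, and the symbols of the other 6 RNAs overlap between the groups.

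None of the 3 imprinted RNAs passed the test, and their estimates were all near 0. Meg3 had 4718, 4318 and 3419 CPM in PFF libraries 1 to 3, against 4570, 4915 and 3012 CPM in PBS libraries 1 to 3. The 2 lowest values were those of replicate 3 of each group, and the groups overlapped. The log2 fold change was −0.0047 ± 0.17 (95% interval −0.38 to 0.37, adjusted p = 0.991 in edgeR). Rian had 1318, 1200 and 1156 CPM in PFF and 1272, 1392 and 1011 CPM in PBS, with a log2 fold change of −0.00056 ± 0.11 (95% interval −0.24 to 0.23, adjusted p = 0.998). Mirg had 28.5, 25.3 and 23.5 CPM in PFF and 26.6, 30.8 and 18.0 CPM in PBS, with a log2 fold change of 0.04 ± 0.16 (95% interval −0.31 to 0.38, adjusted p = 0.924). The lowest library was PBS 3 for all 3 RNAs. A difference was not detectable at this spread. All 3 intervals include 0.20, the estimate of Miat.

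The 3 imprinted RNAs kept nearly the same proportion to each other in both groups. The log2 ratio of Rian to Meg3 averaged −1.75 ± 0.16 in PFF and −1.75 ± 0.15 in PBS (SD, n = 3 each). It was −1.56 in PFF 3 and −1.57 in PBS 3, and between −1.85 and −1.82 in the other 4 libraries, so that it separated replicate 3 and not the groups. The log2 ratio of Mirg to Meg3 averaged −7.30 ± 0.13 in PFF and −7.35 ± 0.05 in PBS. Set against the nuclear RNAs, the mean log2 CPM of Meg3, Rian and Mirg minus that of Neat1, Malat1 and Miat was 0.18 ± 0.08 in PFF and 0.38 ± 0.25 in PBS. The difference of −0.20 was smaller in size than the SD of the PBS libraries, but larger than that of the PFF libraries and the pooled SD (0.19). Within the nuclear RNAs, Neat1 was higher and Malat1 lower in PFF.

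The snoRNA hosts did not pass either. Snhg11 had 1136, 999 and 824 CPM in PFF libraries 1 to 3, against 1122, 1212 and 678 CPM in PBS libraries 1 to 3. Its log2 fold change was −0.03 ± 0.20 (95% interval −0.47 to 0.42, adjusted p = 0.958 in edgeR), the widest interval of the 8. Gas5 had 90.8, 81.6 and 97.8 CPM in PFF and 95.6, 99.2 and 79.3 CPM in PBS, with a log2 fold change of −0.02 ± 0.10 (95% interval −0.23 to 0.19, adjusted p = 0.931). Its highest PFF value and its lowest PBS value were both in replicate 3. With replicates 1 and 2 only, the log2 fold change of Gas5 was −0.17 ± 0.08 (adjusted p = 0.125).

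**Figure D3:**
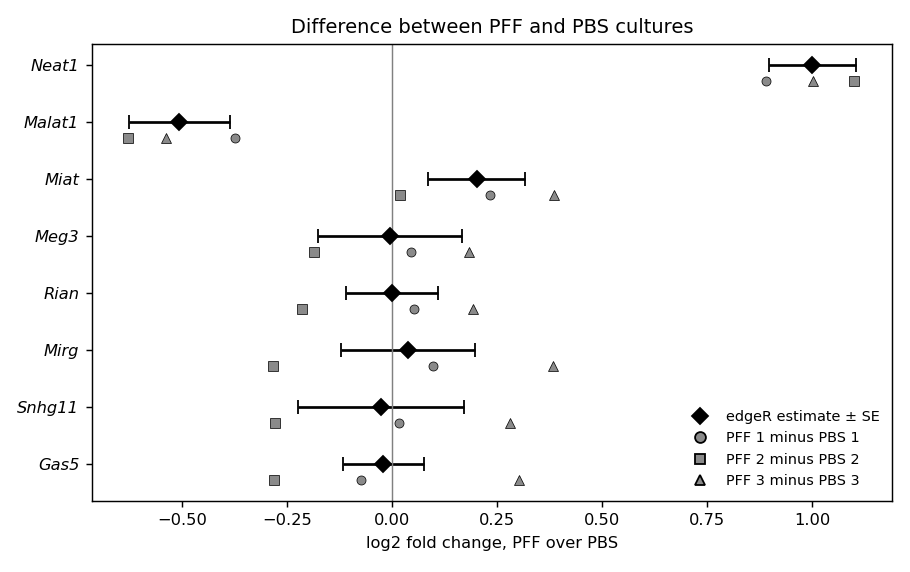
Log2 fold change, PFF over PBS. Diamonds with bars are the edgeR estimates ± SE, and grey symbols the difference in log2 CPM between libraries of the same replicate number, which is a label and not a known pairing. Neat1 lies at 1.00, Malat1 at −0.51, Miat at 0.20 and the other 5 RNAs between −0.03 and 0.04.

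For Meg3, Rian, Mirg, Snhg11 and Gas5 the libraries differed more within the groups than between them. In log2 CPM, replicate 3 lay below the mean of replicates 1 and 2 by 0.40 in PFF and 0.65 in PBS for Meg3. The same differences were −0.37 and −0.78 for Snhg11, −0.20 and −0.46 for Miat, −0.19 and −0.66 for Mirg, −0.12 and −0.40 for Rian, and −0.29 and −0.25 for Malat1. Neat1 went the other way, with 0.19 in PFF and 0.18 in PBS, and Gas5 was 0.18 in PFF and −0.30 in PBS. Replicate 3 thus had less of 6 of the 8 RNAs in both groups. The summed astrocyte markers were highest in replicate 3 of each group (4563 CPM in PFF 3 against 3572 and 3612 CPM in PFF 1 and 2, and 4804 CPM in PBS 3 against 4371 and 3685 CPM in PBS 1 and 2). The endothelial and mural sum was highest there too, with 55.4 CPM in PFF 3 against 43.2 and 33.1 CPM in PFF 1 and 2. In PBS 3 it was 60.3 CPM, against 59.4 and 47.9 CPM in PBS 1 and 2. The sums for microglia and the oligodendrocyte lineage were highest in replicate 3 of PFF but not of PBS. The neuronal sum of replicate 3 lay between those of replicates 1 and 2 in both groups. The part of these cell types in the replicate differences was not tested.

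**Figure D4:**
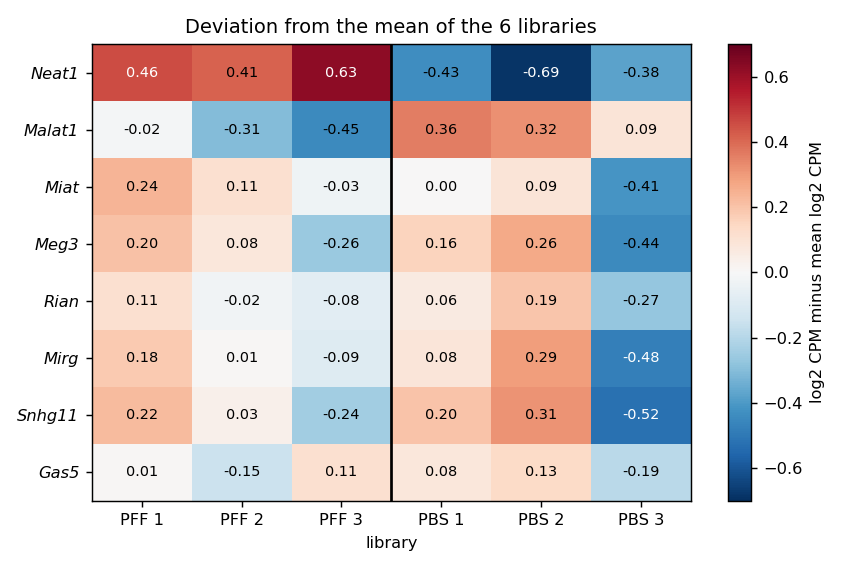
Log2 CPM of each RNA in each library minus its mean over the 6 libraries (red above, blue below), with the 3 PFF libraries left of the line and the 3 PBS libraries right of it. Neat1 is above its mean in all PFF libraries and below it in all PBS libraries. Malat1 is higher in every PBS library than in any PFF library. For Meg3, Rian, Mirg, Snhg11 and Miat the lowest cell of each group is replicate 3.

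Markers of other cells moved beside Neat1. Of 13 tested microglia and macrophage markers 12 were higher in PFF and none lower, and their median was 1.376 on the log2 scale, against −0.00056 over all tested genes. Among them were the integrin Itgam (16.9 ± 1.08 CPM in PFF and 4.56 ± 0.670 CPM in PBS) and the complement gene C1qa (42.7 ± 3.53 CPM in PFF and 14.6 ± 4.08 CPM in PBS). The summed level of the list was 519 to 641 CPM in PFF and 163 to 269 CPM in PBS, and none of the 14 was at 0 in all libraries. In bulk RNA, a change in the number of cells of a type and a change in RNA per cell cannot be told apart. Of 9 astrocyte markers 3 were lower (Aldoc, Slc1a2 and Aldh1l1) and none higher, with summed levels of 3572 to 4563 CPM in PFF and 3685 to 4804 CPM in PBS, but without PFF 2 the count was 0 and without PBS 1 it was 1. Of 12 oligodendrocyte lineage markers 5 were higher and 7 lower (1068 to 1396 CPM in PFF and 1024 to 1247 CPM in PBS). Bcas1 (29.9 ± 0.525 CPM in PFF and 94.5 ± 23.8 CPM in PBS) and the receptor Gpr17 (38.1 ± 4.01 CPM in PFF and 89.2 ± 18.5 CPM in PBS) were among those that fell. The myelin genes Mag (22.4 ± 2.79 CPM in PFF and 8.42 ± 1.00 CPM in PBS) and Mobp (13.4 ± 3.11 CPM in PFF and 4.21 ± 0.684 CPM in PBS) were among those that rose. The count of 7 was 4 without PFF 2 and 4 without PBS 1. Of 12 neuronal markers 2 were higher and none lower, namely the vesicular glutamate transporter Slc17a6 (0.56 ± 0.09, adjusted p = 0.00246) and the synaptic calcium sensor Syt1 (0.33 ± 0.09, adjusted p = 0.0489, both in edgeR). Endothelial and mural markers were at 33.1 to 55.4 CPM in PFF and 47.9 to 60.3 CPM in PBS, with none of 8 called in edgeR (4 at an unadjusted p under 0.05), DESeq2 or limma-voom, and the tight junction gene Cldn5 at 0 in all libraries. In edgeR 1 of them was lower without PFF 1, 2 without PFF 3 and 2 with replicates 1 and 2 only. The neuronal count was 6 when PFF 3 was left out, 6 when both replicates numbered 3 were, and 1 when any other single library was. The part of these cell types in the Neat1 and Malat1 differences was not tested.

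The genes for proteins of the bodies that Neat1 and Malat1 belong to did not pass the test with the full set of libraries. None of 29 paraspeckle protein genes was called in either direction by edgeR (4 at an unadjusted p under 0.05). Over all 13919 tested genes 2944 were under that level. Of the 29, 23 had an estimate above 0, and the median was 0.06 on the log2 scale, against −0.00056 over all tested genes. Rbm14, which is needed to form paraspeckles, had 32.4 ± 2.08 CPM in PFF and 26.7 ± 2.14 CPM in PBS (0.28 ± 0.10, adjusted p = 0.113). The estimate of the core paraspeckle protein gene Nono was 0.16 ± 0.07 (adjusted p = 0.229), that of Hnrnpa1 0.24 ± 0.09 (adjusted p = 0.155) and that of Hnrnpm 0.17 ± 0.08 (adjusted p = 0.232). None of 25 nuclear speckle and splicing genes was called either (1 at an unadjusted p under 0.05, median 0.02). That 1 was Qk, a splicing regulator, with 397 ± 12 CPM in PFF and 458 ± 14.8 CPM in PBS (−0.20 ± 0.07, adjusted p = 0.126). DESeq2 and limma-voom also called 0 genes of both lists. With replicates 1 and 2 only, 1 paraspeckle and 1 speckle gene passed, both higher in PFF. Without PFF 3 alone, 2 paraspeckle genes and 1 speckle gene were higher.

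Around the imprinted RNAs, none of 7 tested genes of the Dlk1-Dio3 domain and its flank was called by edgeR (2 at an unadjusted p under 0.05, median log2 fold change 0.05). The paternally expressed Dlk1, a membrane protein of the Notch ligand type, was near the limit of detection, at 1.01 ± 0.04 CPM in PFF and 1.66 ± 0.32 CPM in PBS (−0.72 ± 0.31, adjusted p = 0.205). Ppp2r5c, a phosphatase subunit gene in the flank, was at −0.18 ± 0.07 on the same scale (adjusted p = 0.188), Yy1, a zinc finger transcription factor, at 0.15 ± 0.09 (adjusted p = 0.384) and Begain at 0.08 ± 0.07 (adjusted p = 0.597). DESeq2 and limma-voom called 0 of these genes, and edgeR called 1 lower with replicates 1 and 2 only. Of 30 tested imprinted genes elsewhere, 1 was lower and 1 higher (6 at an unadjusted p under 0.05, median −0.04). H19, an imprinted long non-coding RNA, fell to 3.06 ± 0.727 CPM in PFF, against 11.1 ± 3.88 CPM in PBS (−1.85 ± 0.28, adjusted p = 0.00123). Peg10, which derives from a retrotransposon, rose to 91.2 ± 15.9 CPM in PFF, against 67.9 ± 6.08 CPM in PBS (0.43 ± 0.12, adjusted p = 0.0435), but the list had 0 genes higher without PFF 1, PFF 2, PBS 1 or PBS 3, and 0 in limma-voom. The count of 1 lower was 2 in DESeq2 and limma-voom, 3 without PFF 3 and 4 with replicates 1 and 2 only. Nnat (−0.28 ± 0.08, adjusted p = 0.0512) and Cdkn1c (−1.13 ± 0.33, adjusted p = 0.0585) did not pass with the full set of libraries.

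None of 19 other genes in the list of snoRNA hosts passed in edgeR with the full set of libraries (1 at an unadjusted p under 0.05). The list also held Mir17hg, a miRNA host. Of the 19, 4 had an estimate above 0, and the median was −0.14, against −0.00056 over all tested genes. Snhg8 had 22.0 ± 2.38 CPM in PFF and 26.4 ± 0.472 CPM in PBS (−0.27 ± 0.10, adjusted p = 0.153). Snhg12 was at −0.21 ± 0.11 (adjusted p = 0.303), Snhg15, listed as Gm11974, at −0.30 ± 0.18 (adjusted p = 0.365) and Snhg6 at −0.28 ± 0.19 (adjusted p = 0.433). With replicates 1 and 2 only, 4 genes of this list were lower and none higher, and without PFF 3 alone 3 were lower. DESeq2 and limma-voom called 0 of the list in the full set of libraries. Of 22 further long non-coding RNAs known from brain none passed in edgeR (3 at an unadjusted p under 0.05), while DESeq2 and limma-voom each called 1 lower. In edgeR 1 was lower without PFF 1, PFF 3 or PBS 3 and with upper-quartile scaling, and 2 were lower and 1 higher with replicates 1 and 2 only. Xist, which coats the inactive X chromosome, had 820 ± 70.1 CPM in PFF and 1020 ± 83.1 CPM in PBS (−0.31 ± 0.09, adjusted p = 0.0577). Pantr1 was at −0.38 ± 0.13 (adjusted p = 0.113), 1700020I14Rik, also known as Cyrano, at −0.23 ± 0.10 (adjusted p = 0.227), and Mir155hg, the host of miR-155, at 0.58 ± 0.28 (adjusted p = 0.257).

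Gas5 was also set beside genes that share its terminal oligopyrimidine tract and beside the factors of nonsense-mediated decay, the route by which Gas5 RNA is degraded when it is translated. Of 25 genes with such a tract 2 were lower and none higher. An estimate below 0 held for 24 of the 25, and their median was −0.20 on the log2 scale, against −0.00056 over all tested genes. Genes of such a list can shift together between libraries, so these are not 25 separate results. The ribosomal protein gene Rps24 had 555 ± 121 CPM in PFF and 756 ± 21.8 CPM in PBS (−0.45 ± 0.12, adjusted p = 0.0441). The elongation factor gene Eef1a1 had 3159 ± 245 CPM in PFF and 3950 ± 77.9 CPM in PBS (−0.32 ± 0.09, adjusted p = 0.0458). Rpl32 (−0.36 ± 0.11, adjusted p = 0.0691) and Rpl5 (−0.27 ± 0.09, adjusted p = 0.117) did not pass. The count of 2 was 22 with replicates 1 and 2 only and 21 without PFF 3, and it was 0 without PFF 1, PFF 2, PBS 1 or PBS 2. Calls over all genes rose too, from 916 to 2394 with replicates 1 and 2 only and to 1858 without PFF 3. None of 14 decay factors was called by edgeR, DESeq2 or limma-voom (in edgeR 3 at an unadjusted p under 0.05), and 11 of the 14 had an estimate above 0, among them Upf1 (0.22 ± 0.08, adjusted p = 0.129), Upf3b (0.30 ± 0.12, adjusted p = 0.170), Smg9 (0.28 ± 0.11, adjusted p = 0.178) and Smg8 (0.21 ± 0.12, adjusted p = 0.325). In edgeR 1 decay factor was higher without PBS 2 and 1 with replicates 1 and 2 only.

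Over the 6 libraries, likeness of pattern was measured as the root mean square distance between centred log2 CPM, among 11516 candidate genes averaging 5 CPM or more. The nearest genes were picked by this distance, so their fold changes lie near that of the RNA by construction. The genes nearest to Neat1 were Gusb (0.05) and Ctsb (0.07), which encode the lysosomal enzymes β-glucuronidase and cathepsin B, with log2 fold changes of 0.95 and 0.96. Nearest to Malat1 were Pde9a (0.05) and Lrrc16b (0.05), with log2 fold changes of −0.46 and −0.44. Zfp57 (0.04) and Gpr4 (0.05) were nearest to Meg3 and, at 0.05 each, also to Mirg. Smyd5 and Zscan26 (0.02 and 0.03) were nearest to Rian, and Dusp1 and 1810055G02Rik (0.03 and 0.04) to Miat. Gpr4 and Gm14827 (0.05 and 0.06) were nearest to Snhg11, and Eif2s3y and 4833420G17Rik (0.02 and 0.04) to Gas5. Among the 8 RNAs themselves, Meg3 and Snhg11, which lie on different chromosomes, were nearest to each other (0.05), followed by Meg3 and Mirg (0.08). Neat1 and Malat1, neighbours in the genome, were farthest apart (0.79), which restates their opposite differences.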

How the data were processed

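The authors deposited estimated counts, 1 row a gene, with 8.69% of the values not whole. Trim Galore 0.6.6, STAR 2.7.9a, DESeq2 1.38.3 and the mm10 genome are named per the submitters' processing notes. The kit marks strand, per the labels' protocols. The counting tool, its strand setting and annotation, and any selection for poly(A) or removal of ribosomal RNA are in none of the sources used here. Malat1 and the long Neat1 transcript lack a poly(A) tail, so such a step would bear on their levels.

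Columns were matched to samples by name. Estimated counts were rounded to whole numbers and analysed in R 4.3.3 with edgeR 4.0.16. Genes were kept by filterByExpr, normalised by TMM and tested over all 13919 genes by the robust quasi-likelihood F-test (two-sided). The design held the group alone, and p-values were adjusted by Benjamini-Hochberg. A gene was called at an adjusted p under 0.05. The SE is the log2 fold change divided by the square root of F, and 95% intervals use the degrees of freedom of the fit. CPM are TMM-normalised, with a prior count of 2 for log2 CPM. Ratios within a library used log2(CPM + 0.5). The precision of a value follows from its count in library totals of 9224974 to 10742383.

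The members and the gene lists were chosen with earlier results of these data known. Named genes are the 8 RNAs, up to 4 genes of each list with the smallest unadjusted p, and the 2 nearest genes of each RNA. Cldn5 and Rn45s fall outside that rule and were named after their values were seen. Listed genes missing under their symbol were matched by RefSeq synonyms. Overlap and length came from GENCODE vM21. Tested on simulated counts for these 13919 genes, the fit recovered 11 of 50 genes at the smallest fold tried, 35 of 50 genes changed 1.5-fold, 48 of 50 changed 2-fold and all 50 changed 4-fold. It made 11 calls among unchanged genes. No 2 libraries of the same group agreed within sampling noise.

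Alternatives were other scalings, including one without the 8 RNAs and Rn45s, other low-count filters, DESeq2 1.42.0, limma-voom (limma 3.58.1), edgeR without robust estimation, a stricter threshold, the replicate number as a block, replicate 3 as a batch term or left out, and each library left out.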

Additional observations from a re-analysis of the deposited data

How the results depend on the processing

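Neat1 kept its direction and its call under all 19 alternatives, and Malat1 its direction under all 19 and its call under 15. Counts of genes changed (916), higher (554) and lower (362) in PFF were 414, 291 and 123 at an adjusted p under 0.01, 2005, 1029 and 976 with replicate 3 as a batch term, 2394, 1225 and 1169 without replicate 3 of either group, and 412 to 1858, 312 to 871 and 100 to 987 with 1 library left out. Of the 8 RNAs, 0 were lower at the threshold of 0.01, and 2 were higher with replicate 3 as a batch term, Miat being the second. With 1 library left out, 1 was higher and 0 to 1 lower. Whether the replicate numbers pair the samples could not be decided from 3 libraries a group. Same-numbered libraries deviated from their group means with correlations of 0.09, 0.11 and 0.20. Libraries of different number ranged from −0.21 (PFF 1 with PBS 3) to 0.13 (PFF 1 with PBS 2). A block on the replicate number gave 1997 genes changed, 1043 higher and 954 lower, and Meg3, Rian and Snhg11 at 0.014, 0.0098 and 0.0052.

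Estimates near 0 changed sign, never past the threshold. Scaled by library size only, Meg3, Rian, Snhg11 and Gas5 were at 0.024, 0.028, 0.0020 and 0.0068. In limma-voom Meg3, Rian and Snhg11 were at 0.013, 0.0097 and 0.0054, and in the fit with the batch term at 0.014, 0.0097 and 0.0062. Mirg was at −0.090 with replicates 1 and 2 only. With 1 library left out, Meg3 ranged from −0.19 to 0.13, Rian from −0.12 to 0.098, Mirg from −0.16 to 0.21, Snhg11 from −0.24 to 0.13, Gas5 from −0.11 to 0.046 and Malat1 from −0.64 to −0.41. No ratio between the RNAs moved by more than its spread. The cause of these shifts was not tested. Of 494 list counts recomputed, 410 stayed within 1.5 times. With 3 libraries a group, 35 of 50 genes changed 1.5-fold were recovered in simulated data, and 11 of 50 at the smallest change tried, so small differences in these RNAs could be missed.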
